A study of Mus musculus with 6 samples.

Results

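Cells in bone sense load through ion channels that open when the membrane is stretched, through the primary cilium with its polycystins, and through adhesion receptors that tie the cell to matrix. Osteocytes, the cells buried in bone matrix, pass such signals on through gap junctions built from connexins and release ATP and other small molecules through connexin hemichannels and pannexin channels. The 10 genes described here cover these roles: the stretch-gated channels Piezo1 and Piezo2, the calcium-permeable channel Trpv4, the polycystins Pkd1 and Pkd2, the connexins Gja1 and Gjc1, the pannexins Panx1 and Panx3, and the hyaluronan receptor Cd44. They were chosen by gene name, and all 10 have a row among the 25721 genes of the authors' deposited comparison table.

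RNA came from the shaft cortex of mouse tibiae that had been cleaned, freed of their ends and flushed of marrow. The 3 adenine libraries are from wild-type mice on chow holding 0.2% (w/w) adenine, a diet used to model chronic kidney disease, and the 3 control libraries are from wild-type mice on a control diet. The diets were given for 4 weeks from 8 weeks of age, and bones were taken at 12 weeks. The labels used here name neither strain nor sex, and nothing in them says that each library is a separate mouse, so p-values measure only the spread between these libraries.

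Libraries held 9977694 to 12044459 counted reads on the adenine diet and 10549071 to 14598010 on the control diet. All 10 osteocyte and all 8 osteoblast markers were detected, and so were markers of neighbouring tissues. Summed FPKM (fragments scaled to gene length and library size, as deposited) of 9 skeletal muscle markers was 1507, 30991 and 3022 in adenine 1 to 3 and 25935, 9386 and 40077 in control 1 to 3, so muscle RNA varied widely within both groups. Summed FPKM of 8 kidney tubule markers was highest in adenine 1 and adenine 2, at 2096 and 959, against at most 274 in the other libraries. Coordinates given for genes are whole gene spans as the files have them, and the genome build is not stated there. Because whole tissue was sequenced, fewer cells of a type and less RNA per cell cannot be told apart.

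Panx3 was higher and Piezo2 lower on the adenine diet, with log2 fold changes of 1.99 and -3.32, neither past the test over all genes, while Gja1, Piezo1, Gjc1 and Panx1 had fold changes near 1 with wide intervals. Over all 15609 genes that passed a filter on low counts, edgeR's quasi-likelihood test called 0 genes at an adjusted p under 0.05, which is 0% of those tested, so none of the 10 genes passed (smallest adjusted p over all genes 0.169). At an unadjusted p under 0.05 there were 3 of the 10 genes, Panx3 higher and Piezo2 and Pkd1 lower, where 1671 or 10.7% of all genes tested had such a p. By direction that share was 4.22% higher and 6.49% lower. The authors' deposited table called 2 of the 10 at an adjusted p under 0.05, Panx3 higher and Piezo2 lower, where it called 1.4% of its rows, 0.467% higher and 0.937% lower. A DESeq2 Wald test of the deposited counts called the same 2 genes and 1.93% of the genes it gave an adjusted p. It gave the same 361 calls over all genes as the authors' deposited table, so it repeats their result and is no separate support. Adenine and control libraries did not overlap in CPM (counts scaled to an equal library size by TMM) for Panx3, higher, and for Piezo2 and Pkd1, lower. Of all genes tested 16.5% did not overlap, 7.68% higher and 8.86% lower. Piezo2 passed the filter only through the control libraries, so it had to differ. Its place in the edgeR and overlap counts is no support for a change. The 10 genes were chosen with earlier results of these data known, so these counts are no support for a change in the group.

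**Figure D1:**
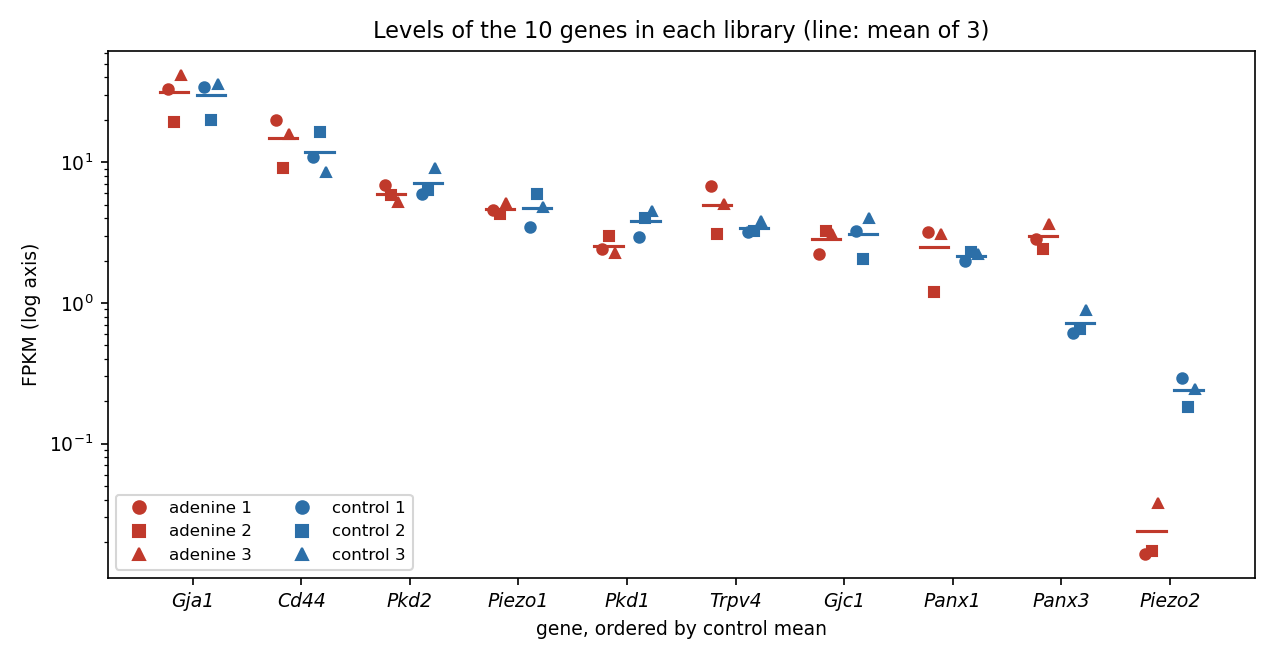
Deposited FPKM of the 10 genes (log axis) in the 3 adenine libraries (red) and the 3 control libraries (blue), with a line at each group mean. Panx3 sits at 2.43 to 3.61 FPKM in adenine libraries and at 0.614 to 0.891 in control libraries, and Piezo2 lies lowest in both groups.

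Panx3 encodes a pannexin that in mouse is found mainly in osteoblasts and in cartilage cells near hypertrophy, where it passes ATP and calcium. It lies on chromosome 9, from 37571198 to 37580531 on the minus strand in the files' coordinates (ENSMUSG00000011118). Its FPKM was 2.85, 2.43 and 3.61 in adenine 1 to 3, against 0.614, 0.649 and 0.891 in control 1 to 3. The lowest adenine library lay above the highest control library by a wide margin, and the reads behind these values were 104, 85 and 171 in adenine libraries and 32, 27 and 42 in control libraries. The fitted log2 fold change was 1.99 (SE 0.36), a 3.98-fold higher level with a 95% interval of 2.22 to 7.14 (edgeR, unadjusted p = 6.85e-04, adjusted p = 0.18, rank 58 of 15609 by p). The authors' deposited table gave Panx3 an adjusted p of 0.00306. Leaving out any 1 library kept the log2 fold change between 1.81 and 2.17.

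Markers of the cells that use Panx3 were not all higher. Summed FPKM of 8 osteoblast markers was 7150, 3719 and 9601 in adenine libraries, against 4483, 3408 and 3083 in control libraries, so the groups overlapped at adenine 2, which still had 2.43 FPKM of Panx3. All 8 of these markers had positive fold changes, with a median log2 fold change of 0.51. Chondrocyte markers ran the other way, with 4 of 5 tested genes negative and a summed FPKM of 14.9 to 16.9 in adenine libraries and 50.3 to 88.0 in control libraries. Summed FPKM of 8 osteoclast markers was higher on the adenine diet, at 1737 to 3195, against 719 to 808 on the control diet. The part of these shifts in the Panx3 difference was not tested.

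Panx1, the widely expressed pannexin (chromosome 9, 14913424 to 14956774, minus strand), showed no such split. Its FPKM was 3.20, 1.19 and 3.07 in adenine libraries and 1.98, 2.29 and 2.21 in control libraries. Control libraries were close together, whereas adenine 2 lay below all of them and the other two adenine libraries above all of them. Its log2 fold change was 0.14 with a 95% interval of -0.73 to 1.01 (edgeR adjusted p = 0.89). The third family member, Panx2, had 1.70% of the summed pannexin FPKM in adenine 1 and was listed at 0 in the other libraries.

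The ratio of Panx3 to Panx1 within a library does not depend on how libraries are scaled. Panx3 was 0.891, 2.04 and 1.18 times Panx1 in adenine 1 to 3, against 0.310, 0.284 and 0.403 times in control 1 to 3. All 3 adenine ratios lay above all control ratios, and the log2 ratio differed by 1.97 (exact two-sided permutation test, p = 0.1, the smallest that 3 libraries against 3 can give; 0.2 adjusted over 4 pairs). Panx3 made up 55.8% ± 10.5 of the summed FPKM of the 3 pannexins on the adenine diet and 24.8% ± 3.45 on the control diet (SD, n = 3 each).

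**Figure D2:**
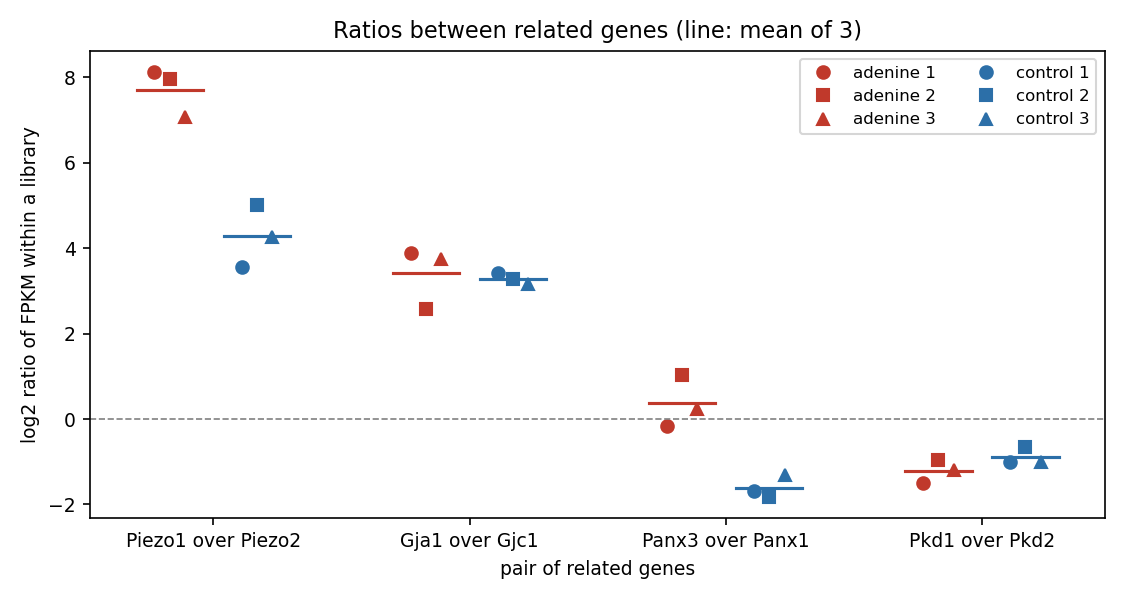
Log2 ratio of FPKM between related genes within each adenine library (red) and control library (blue), with a line at each group mean; 0 means equal levels. Panx3 over Panx1 and Piezo1 over Piezo2 are higher in all 3 adenine libraries, and the other pairs overlap.

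Piezo2 encodes the stretch-gated channel of touch and position sense, best known in sensory neurons and in Merkel cells of the skin. It lies on chromosome 18, from 63143284 to 63520254 on the minus strand in the files' coordinates (ENSMUSG00000041482). Only 3, 3 and 9 reads were counted in adenine 1 to 3, against 76, 38 and 58 in control 1 to 3. As FPKM these are 0.0165, 0.0172 and 0.0381 in adenine libraries and 0.292, 0.183 and 0.246 in control libraries. The groups were far apart, yet the gene was rare in both: it passed the filter on low counts through the control libraries, since all adenine libraries had fewer than 10 reads. Piezo2 therefore had to differ, and its edgeR p and rank are no separate support for a change.

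The fitted log2 fold change of Piezo2 was -3.32 (SE 0.63) with a 95% interval of -4.79 to -1.86 (edgeR, unadjusted p = 8.69e-04, adjusted p = 0.18, rank 73 of 15609 by p). Over the summed reads, 15 on the adenine diet and 172 on the control diet, the ratio after library scaling was 0.0997 with an exact 95% interval of 0.0546 to 0.169, which covers counting error only. The authors' deposited table gave a log2 fold change of -3.35 and an adjusted p of 0.00205. Leaving out any 1 library kept the log2 fold change between -3.85 and -3.10.

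Several marker lists ran in the same direction as Piezo2. Of 9 Schwann cell and nerve markers, 8 had negative fold changes, and their summed FPKM was 56.2, 53.7 and 76.4 in adenine libraries and 129, 277 and 276 in control libraries. All 9 periosteal and tendon fibroblast markers and all 8 endothelial markers also had negative fold changes. Summed FPKM was 44.2 to 108 in adenine libraries and 221 to 310 in control libraries for the fibroblast list, and 71.1 to 100.4 in adenine libraries and 169 to 195 in control libraries for the endothelial list. None of these markers was at 0 in all libraries. Control 1, with the lowest nerve sum of the control group, had the highest Piezo2 level of all. The 3 keratinocyte markers summed to 0.534 to 1.47 FPKM in adenine libraries and 0.759 to 1.59 FPKM in control libraries, with Krt14 at 0 in all. The part of nerve, fibroblast, vessel or skin RNA in the Piezo2 difference was not tested.

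Piezo1, the stretch-gated channel through which osteoblasts and osteocytes respond to load in mice (chromosome 8, 123208437 to 123278068, minus strand), made up most Piezo transcript. Its FPKM was 4.61, 4.27 and 5.09 in adenine libraries and 3.47, 5.90 and 4.77 in control libraries, so the adenine values fell inside the control range. The log2 fold change was -0.07 with a 95% interval of -0.62 to 0.49 (edgeR adjusted p = 0.921), which leaves room for a 1.41-fold higher level or a drop to 0.649 times. Piezo1 held 99.5% ± 0.211 of the summed FPKM of both Piezo genes on the adenine diet and 94.8% ± 2.39 on the control diet (SD, n = 3 each). It exceeded Piezo2 by 280, 249 and 134 times in adenine 1 to 3 and by 11.9, 32.3 and 19.4 times in control 1 to 3. This log2 ratio differed by 3.43 (exact two-sided permutation test, p = 0.1, the smallest possible, and 0.2 adjusted over 4 pairs), and it rests on the few Piezo2 reads. Piezo2 passed the filter only through the control libraries, so the split of this ratio is no separate support for a change. The gene Ctu2 overlaps Piezo1 on the opposite strand at 1.75 to 3.13 FPKM, and no source used here gives the strand setting of the counting, so a share of reads could be assigned to either.

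**Figure D3:**
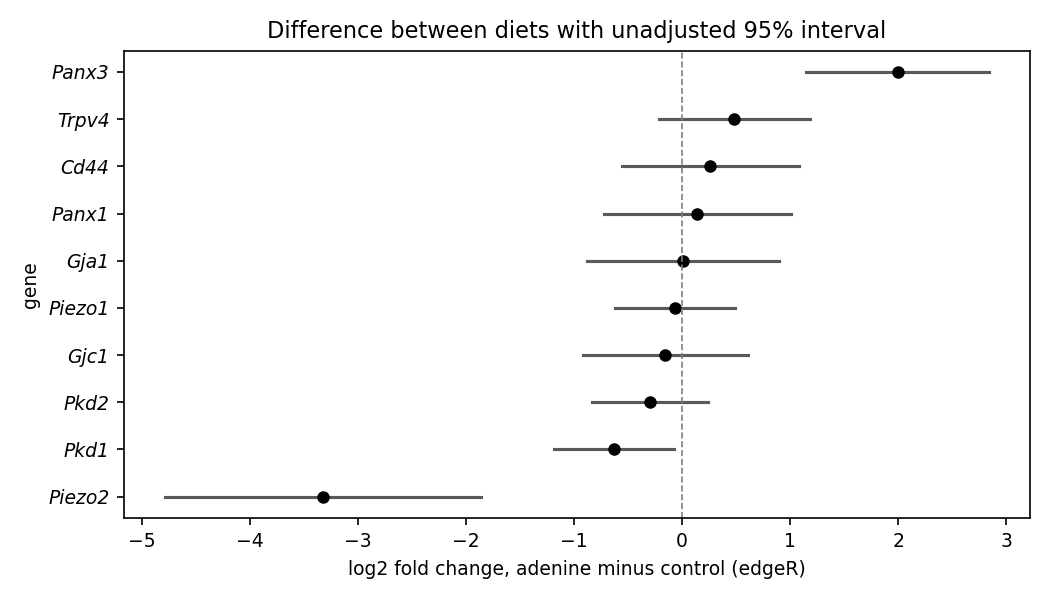
EdgeR log2 fold change, adenine minus control, of each of the 10 genes (points) with its unadjusted 95% interval (lines). The intervals of Panx3, Piezo2 and Pkd1 lie to one side of 0 and those of the other 7 genes cross it.

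Gja1 (chromosome 10, 56253426 to 56278609, plus strand) encodes the main connexin of osteoblasts and osteocytes and was the most abundant of the 10 genes. Its FPKM was 33.1, 19.3 and 41.8 in adenine 1 to 3 and 34.3, 19.9 and 36.1 in control 1 to 3. Each group held a pair of higher libraries and 1 lower one, adenine 2 and control 2, and the groups overlapped. The log2 fold change was 0.0054 (SE 0.38) with a 95% interval of -0.88 to 0.89 (edgeR adjusted p = 0.996), so the fold could lie anywhere from 0.543 to 1.86. Gjc1, a second connexin of bone cells and also of heart conduction tissue and vessel walls (chromosome 11, 102690405 to 102710526, minus strand), had 2.22, 3.24 and 3.10 FPKM in adenine libraries and 3.22, 2.05 and 4.01 FPKM in control libraries. Its log2 fold change was -0.16 with a 95% interval of -0.92 to 0.61 (edgeR adjusted p = 0.861).

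All 10 osteocyte markers had negative fold changes, and their summed FPKM was 59.7, 49.0 and 66.6 in adenine libraries and 195, 230 and 85.8 in control libraries. The part of this shift, and of the osteoblast sums given above, in the Gja1, Gjc1 and Piezo1 levels was not tested.

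Gja1 exceeded Gjc1 by 14.9, 5.97 and 13.5 times in adenine libraries and by 10.6, 9.74 and 9.01 times in control libraries. The control ratios were tight and the adenine ratios spread around them, with a log2 difference of 0.12 (exact two-sided permutation test, p = 0.9). Of the summed FPKM of 20 connexins, Gja1 held 64.9% ± 9.56 on the adenine diet and 51.6% ± 6.52 on the control diet (SD, n = 3 each), with overlapping groups. Gja4 and Gja5, connexins of arterial endothelium, held the next shares in control libraries, 30.5% ± 7.80 and 9.28% ± 1.11. On the adenine diet their shares were 19.8% ± 6.87 for Gja4 and 4.80% ± 1.94 for Gja5 (SD, n = 3).

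Of 19 genes, Panx2 and the other connexins, 4 passed the filter, and 3 of these were lower at an unadjusted p under 0.05 without overlap between groups; over all genes tested 6.49% were lower by that p and 8.86% lower without overlap. Gjc3, 1 of the 3, passed the filter only through the control libraries, so it had to differ, and the count is no support for a change in the list. Gja5 had 2.31, 2.41 and 1.67 FPKM in adenine libraries and 5.11, 4.45 and 6.28 FPKM in control libraries, a log2 fold change of -1.36 (edgeR adjusted p = 0.18; the authors' deposited table gave an adjusted p of 0.0143). Gja4 had 7.37 to 9.85 FPKM in adenine libraries and 14.6 to 19.0 FPKM in control libraries, with a log2 fold change of -0.97. Gjc3, a connexin of myelinating Schwann cells, had -1.81 on 4 to 9 reads per adenine library and 18 to 32 per control library. Gjb2 had 1.44 (SE 1.36), with 74, 14 and 0 reads in adenine 1 to 3 and 23, 7 and 10 reads in control 1 to 3. Its FPKM was 2.90 in adenine 1, 0.571 in adenine 2 and 0.629 in control 1, where the kidney tubule sums were 2096, 959 and 274; the part of kidney RNA was not tested. Gja4 and Gja5 were lower together with the endothelial list given above, whose part in their values was not tested.

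Trpv4 (chromosome 5, 114760213 to 114796482, minus strand) encodes a calcium-permeable channel opened by swelling, warmth and shear that takes part in osteoclast and osteoblast responses. Its FPKM was 6.81, 3.11 and 5.04 in adenine libraries and 3.20, 3.26 and 3.79 in control libraries. Adenine 1 and adenine 3 lay above all control libraries and adenine 2 just below them. The log2 fold change was 0.48 with a 95% interval of -0.22 to 1.18 (edgeR adjusted p = 0.58). It was 0.71 without adenine 2 and 0.23 without adenine 1. With an adjustment for muscle RNA, added once the values had been seen, it was 0.08. Osteoclast and macrophage markers were higher in the adenine libraries too, the macrophage sum at 142 to 305 FPKM there, against 85.4 to 104 FPKM in control libraries; their part in the Trpv4 level was not tested.

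Pkd1 and Pkd2 encode polycystin 1, a large receptor-like protein, and polycystin 2, the channel it assembles with at the cilium. Pkd1 lies on chromosome 17, 24768808 to 24815482 on the plus strand, and Pkd2 on chromosome 5, 104607316 to 104653685 on the plus strand. Pkd1 had 2.41, 2.99 and 2.25 FPKM in adenine libraries and 2.95, 4.03 and 4.48 FPKM in control libraries. The highest adenine value, in adenine 2, lay just above the lowest control value, in control 1. In TMM-scaled CPM these libraries had 55.6 and 56.0, so the groups were apart by little. The log2 fold change was -0.63 with a 95% interval of -1.18 to -0.07 (edgeR, unadjusted p = 0.0318, adjusted p = 0.432). Its unadjusted p was 0.0655 to 0.107 when adenine 1, adenine 3, control 2 or control 3 was left out (edgeR), with a log2 fold change of -0.50 to -0.59. Tsc2 overlaps Pkd1 on the opposite strand at 4.55, 9.70 and 4.68 FPKM in adenine libraries and 5.69, 5.42 and 8.67 FPKM in control libraries, so some reads of either could be counted for the other.

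Pkd2 had 6.83, 5.85 and 5.18 FPKM in adenine libraries and 5.89, 6.31 and 9.02 FPKM in control libraries. Only control 3 stood clear of the rest, and the groups overlapped. The log2 fold change was -0.30 with a 95% interval of -0.84 to 0.24 (edgeR adjusted p = 0.636), and without control 3 it was -0.09. Pkd1 was 0.353, 0.511 and 0.434 times Pkd2 in adenine libraries and 0.501, 0.639 and 0.497 times in control libraries. The log2 ratio differed by -0.34, within overlapping groups (exact two-sided permutation test, p = 0.3; 0.4 adjusted over 4 pairs).

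Cd44 (chromosome 2, 102641486 to 102732010, minus strand) encodes a receptor for hyaluronan and osteopontin that links matrix to the cell cortex and is found on osteocytes, osteoclasts and many blood cells. Its FPKM was 19.8, 9.10 and 15.9 in adenine libraries and 10.9, 16.4 and 8.48 in control libraries. The values interleaved, with a log2 fold change of 0.26 and a 95% interval of -0.56 to 1.08 (edgeR adjusted p = 0.773). The 3 libraries with the most Cd44, adenine 1, adenine 3 and control 2, were the 3 with the lowest muscle sums given above. With the added adjustment for muscle RNA the log2 fold change of Cd44 was -0.28, that of Panx1 -0.51, that of Panx3 1.94 and that of Piezo2 -3.32. Macrophage and osteoclast markers, types that carry Cd44, were higher in all adenine libraries, although adenine 2 had less Cd44 than control 1 and control 2. Summed FPKM of 7 neutrophil markers was 4269, 4174 and 5300 in adenine 1 to 3 and 1737, 4617 and 499 in control 1 to 3. The sum of 4 red cell markers ran from 9942 in control 3 to 78674 in adenine 1, so blood cell RNA varied widely after flushing. The part of these cell types in the Cd44 level was not tested.

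**Figure D4:**
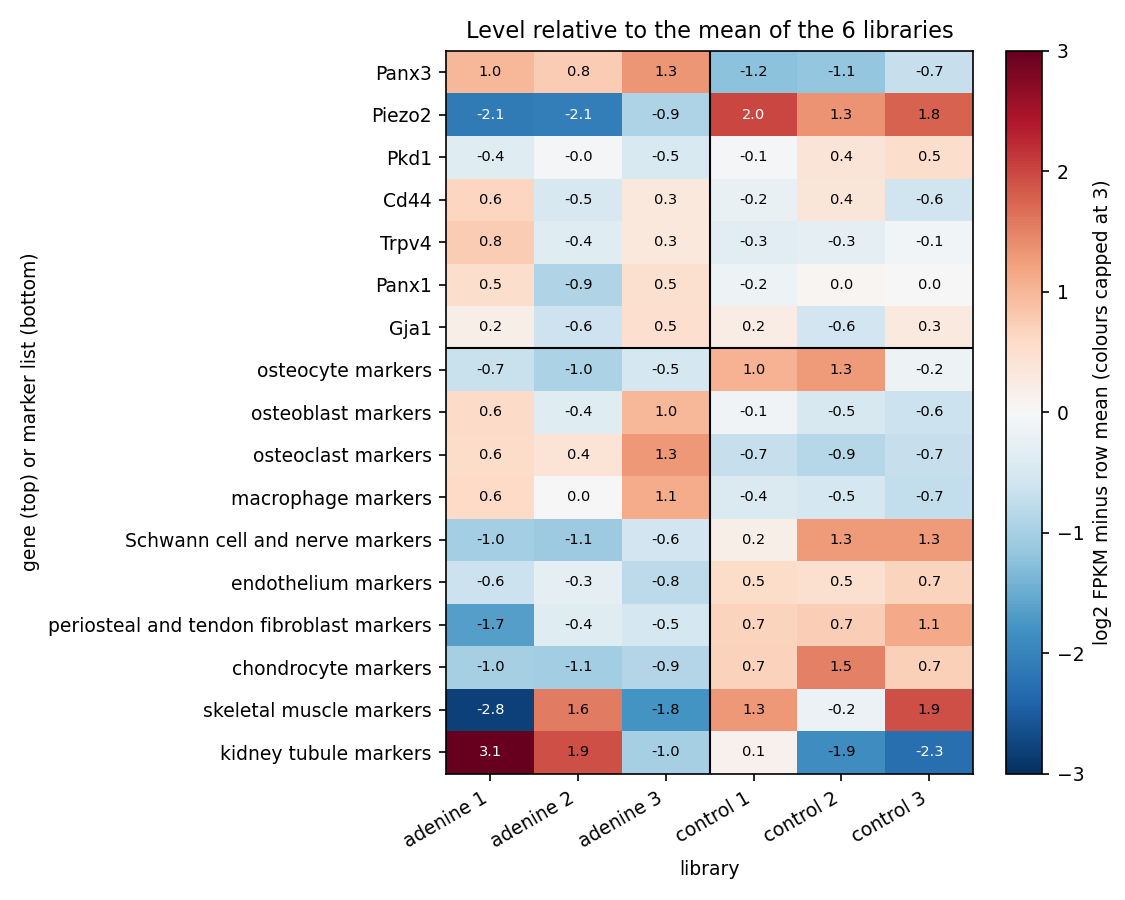
Log2 FPKM of 7 of the genes (top) and log2 summed FPKM of 10 marker lists (bottom) in each library, minus the row's mean over the 6 libraries. Panx3 and Piezo2 split by diet, while Cd44, Trpv4, Panx1 and Gja1 are below their row mean in adenine 2.

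On a per-length scale the order of levels was alike at the top in both groups. On the adenine diet the mean FPKM ran from Gja1 (31.4 ± 11.3) and Cd44 (14.9 ± 5.42) through Pkd2 (5.95 ± 0.830), Trpv4 (4.99 ± 1.85) and Piezo1 (4.66 ± 0.413) to Panx3 (2.97 ± 0.600), Gjc1 (2.85 ± 0.553), Pkd1 (2.55 ± 0.388), Panx1 (2.49 ± 1.13) and Piezo2 (0.0239 ± 0.0123; SD, n = 3). Neighbours in that order overlapped except at 3 steps: from Cd44 to Pkd2, from Piezo1 to Panx3 and from Panx1 to Piezo2. On the control diet it ran from Gja1 (30.1 ± 8.85), Cd44 (11.9 ± 4.06), Pkd2 (7.07 ± 1.70) and Piezo1 (4.71 ± 1.22) through Pkd1 (3.82 ± 0.786), Trpv4 (3.42 ± 0.326), Gjc1 (3.09 ± 0.987) and Panx1 (2.16 ± 0.162) to Panx3 (0.718 ± 0.151) and Piezo2 (0.240 ± 0.0547; SD, n = 3). There the clear steps were from Gja1 to Cd44, from Panx1 to Panx3 and from Panx3 to Piezo2.

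The protein-coding genes whose level ran most like that of 3 of these genes over the 6 libraries were picked by Pearson's r of log2 CPM. For Gja1 they were Vit (r = 0.992), Rars (0.984) and Rnf25 (0.981), for Piezo1 Fbxo38 (0.987), Pdcd6ip (0.985) and Nek1 (0.982), and for Cd44 Sf3a1 (0.996), Ppm1g (0.994) and Tatdn2 (0.992). These are the extremes of 11781 genes over only 6 libraries that share scaling and tissue makeup. An r above 0.9 was reached by 65 genes for Gja1, 41 for Piezo1 and 453 for Cd44.

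Genes that work with these channels were read from the same fit, and a value given alone beside such a gene is its log2 fold change. Of 169 such genes in 10 lists, 136 were tested; edgeR passed 0 of them over all genes, and at an unadjusted p under 0.05 there were 7 higher and 25 lower, 23.5% in all, against 10.7% of all genes tested. The authors' deposited table called 9 of the 159 genes present in it, or 5.66%, against 1.4% of all its rows. Has2 and Gjc3 are the 2 of the 136 with no library of the other group at the filter's cutoff, so they had to differ, and both are in the counts by p. Other genes reached the cutoff in fewer libraries of 1 group than of the other. Of these Cacna2d4, with 1 adenine and 3 control libraries at the cutoff, is also in the counts by p. It would not have passed without its control libraries. The lists were chosen with earlier results of these data known, so these shares are no support for a change in the lists. The median log2 fold change of the 136 was -0.26, against a median of all genes near 0 (-3.85e-07). The counts of each list below stand beside these shares over all genes tested: 4.22% higher and 6.49% lower at an unadjusted p under 0.05 (edgeR). Groups did not overlap for 16.5% of all genes tested, 7.68% higher and 8.86% lower.

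Among ligands and partners of Cd44, 3 of 17 tested genes were higher and none lower at an unadjusted p under 0.05, with a list median of 0.17. Has2, the main hyaluronan synthase of connective tissue, had 0.778, 0.718 and 0.771 FPKM in adenine libraries and 0.0622, 0.0390 and 0.189 FPKM in control libraries, a log2 fold change of 2.89 (SE 0.73; edgeR adjusted p = 0.267; adjusted p = 0.0301 in the authors' deposited table). All adenine values lay above all control values, which rest on 4, 2 and 11 reads. Has2 passed the filter only through the adenine libraries, so it had to differ, and its place among the 3 is no support for a change in the list. Cemip, which breaks hyaluronan down, had a log2 fold change of 1.20, also without overlap. Vcan, a proteoglycan that binds hyaluronan, had 4.41, 1.36 and 3.30 FPKM in adenine libraries and 0.528, 1.40 and 0.645 FPKM in control libraries, with overlap at adenine 2 and a log2 fold change of 1.75. Pdpn, a membrane glycoprotein of osteocytes and lymphatic vessels, had -0.83 (edgeR adjusted p = 0.502) and is also in the osteocyte list.

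Among junction partners, 3 of 11 genes were lower and 1 higher by that rule, with a list median of -0.28. Ccn3, a matricellular protein that binds the tail of the Gja1 connexin, had 3.25, 2.36 and 0.759 FPKM in adenine libraries and 7.69, 7.59 and 8.76 FPKM in control libraries, a log2 fold change of -1.98. Cav1, the caveolae coat protein, had -1.65 and Tjp1, the junction scaffold, -0.98, both lower without overlap. Cdh2, a cadherin of osteoblasts, was higher without overlap at 0.79. In the authors' deposited table, Ccn3 (adjusted p = 0.0133) and Cav1 (adjusted p = 0.0492) were called.

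Of 14 genes of the ATP and adenosine group beyond the pannexins, 13 were tested and 3 were lower. These were the ectoenzymes Enpp1 (log2 fold change -1.15), Entpd1 (-0.91) and Nt5e (-0.83), each lower in all 3 adenine libraries than in any control library, with edgeR adjusted p values of 0.281, 0.327 and 0.439. The ATP-gated channel P2rx7 had 0.71 without overlap (edgeR, unadjusted p = 0.0548). The list median was -0.12.

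Among load-responsive bone genes, 8 of 14 were lower and 2 higher at an unadjusted p under 0.05, with a median of -1.30. The list was not sorted by the direction in which load moves each gene, so its counts and median do not measure a load response. Tnfrsf11b, the decoy receptor for RANKL, had -1.99 without overlap; Dkk1, a Wnt antagonist, had -2.65 and the immediate early gene Egr1 -1.99, both with overlap, and Ptges, a prostaglandin E synthase, had -1.36 without overlap. Dkk1 had 0.543, 1.13 and 1.11 FPKM in adenine libraries and 6.70, 9.22 and 1.02 FPKM in control libraries. The osteocyte marker sums given above were likewise lower in all adenine libraries and lowest of the controls in control 3, and Sost stands in both lists. The part of this shift in the load-responsive genes was not tested. Of YAP and TAZ with their targets, 13 of 14 had negative fold changes and 3 were lower by that rule. These were Axl (-0.83), Tead4 (-1.94) and Wwtr1 (-0.87), the gene of TAZ; Tead1 had -1.37 with overlap. Tead1 had 1.40, 4.90 and 0.995 FPKM in adenine libraries and 5.87, 2.93 and 9.78 FPKM in control libraries, and Tead4 had 0.419, 1.23 and 0.464 FPKM in adenine libraries and 2.91, 1.42 and 3.59 FPKM in control libraries. Within each group both ran in the order of the muscle sums except that adenine 1 and adenine 3 changed places for Tead1. Between groups, adenine 2, with more muscle RNA than control 2, had less Tead4 and more Tead1. The part of muscle in these values was not tested.

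The other lists showed few differences. Of stretch, volume and TRP channels with Piezo partners, 18 genes were tested, with Trpv2 higher (0.73), Trpm4 lower (-0.69) and a median of -0.05; Mdfic, a Piezo-binding protein, had 0.28. Of 14 voltage-gated calcium channel genes 1 was lower, Cacna2d4 (-3.42), on 1, 19 and 4 reads in adenine libraries and 127, 68 and 132 in control libraries. Cacna2d4 reached the filter's cutoff in 1 adenine and 3 control libraries, so it passed mainly through the control libraries. Its place in the count is no support for a change in the list. Cacna1d had 1.14, Cacna1h -1.34 and Cacna2d3 -1.23. Of 16 polycystin relatives and cilium genes 1 was lower, Evc2 (-0.92), while Arl13b had -0.54, Kif3b 0.38 and Pkhd1, abundant in kidney, 2.07 with its most reads in adenine 1. Of 15 integrin and focal adhesion genes 2 were lower, Parva (-0.51) and Ptk2 (-0.66), the focal adhesion kinase. Fermt2 had -1.17 with overlap and Itgav 0.44. Within each group Fermt2 ran in the order of the muscle sums. Between groups, adenine 2, with more muscle RNA than control 1, had less Fermt2. The part of muscle in the Fermt2 values was not tested.

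**Figure D5:**
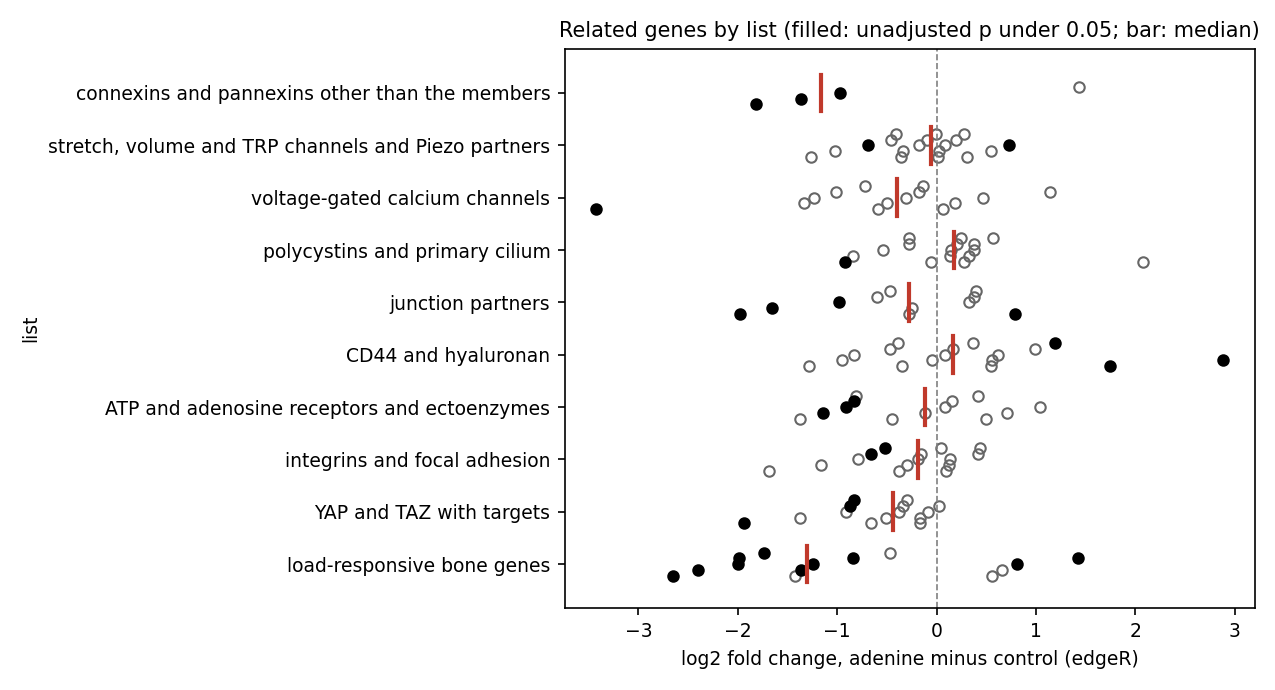
EdgeR log2 fold change, adenine minus control, of each tested gene in 10 lists of related genes, filled where the unadjusted p was under 0.05, with a bar at the list median. The load-responsive bone genes, not sorted by the direction in which load moves them, have the lowest median, -1.30. The Cd44 and hyaluronan genes have 3 filled points to the right and none to the left.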

How the data were processed

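Per the labels' protocols, polyA RNA was read from tibia cortex; they describe directional and non-directional preparation without saying which was used. The authors deposited raw counts per gene and library, FPKM per gene and library, and a table of their own log2 fold changes with raw and adjusted p-values, per the file headers. Tools named in the submitters' processing notes, with no role, are DESeq2, edgeR 3.22.5, featureCounts 1.5.0-p3 and HISAT2 2.0.5. Build and annotation: not given in the sources used here.

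Libraries were grouped by diet. Counts of the 15609 genes kept by filterByExpr (minimum count 10) were tested with edgeR 4.0.16 under R 4.3.3 (glmQLFit and glmQLFTest, robust, with TMM factors; diet was the sole term and tests were two-sided). P values were adjusted by Benjamini-Hochberg over all genes, with a threshold of 0.05. Standard errors are the absolute log2 fold change over the square root of F, and 95% intervals, not adjusted, use the moderated degrees of freedom. All 10 genes passed the filter, Piezo2 through its control libraries. A DESeq2 1.42.0 fit of the deposited counts gave the same 361 calls as the authors' table, whose adjusted p is 1 in 7030 rows; this fit gave 7030 genes none. FPKM were used for levels between genes, marker sums and ratios. The code was tested on simulated counts. Alternatives included limma 3.58.1 on log2 FPKM with pseudocounts of 1 and 0.1.

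Named genes are the 10 members, up to 4 genes of each list by smallest p, and the 3 genes most like Gja1, Piezo1 and Cd44 (protein-coding, mean of at least 1 FPKM, log2 CPM with a prior count of 2), with marker genes named where at 0. Ctu2, Tsc2 and Panx2 were named outside that rule, after their values were seen. One gene that the rule names is not reported here. The members and lists were chosen with earlier results of these data known. No sequence was printed: the promoter table used here has no entry for Panx3.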

Additional observations from a re-analysis of the deposited data

How the results depend on the processing

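The count of genes past the threshold, 0 in edgeR, was 361 with the DESeq2 Wald test, 66 with no filter on low counts, 1 with limma-trend on log2(FPKM + 1), 1 with log2(FPKM + 0.1) and 1 with adjustment for muscle RNA (added once the values had been seen). It was 0 to 334 with 1 library left out, the 334 without adenine 2. Of the 10 genes 0 passed in edgeR and limma and 2 by the DESeq2 Wald test, Panx3 (adjusted p = 0.00306; range over all alternatives 0.00306 to 0.946) and Piezo2 (adjusted p = 0.00205; range 0.00205 to 1.00). Of the related genes 0 passed in edgeR, 9 by the DESeq2 Wald test, and 0 to 4 with 1 library left out, the 4 without adenine 2. Panx3, Piezo2, Trpv4, Pkd1 and Pkd2 kept their direction under each alternative run; Piezo2 was not tested with a minimum count of 50 or by limma, being too low. Log2 fold changes of the other 5 genes changed sign under some settings, and the cause was not tested. Gja1 had -0.0016 without a filter, -0.011 with the replicate block, -0.22 with the muscle adjustment and -0.27 to 0.23 with 1 library left out. Piezo1 had 0.0059 and 0.012 by limma with pseudocounts of 1 and 0.1 and -0.22 to 0.13 with 1 library left out. With the muscle adjustment Cd44 had -0.28, Gjc1 0.21 and Panx1 -0.51. Without adenine 1 and control 3 together, also added later, Cd44 had -0.16, Gjc1 0.23 and Panx1 -0.042. With 1 library left out Gjc1 ran from -0.38 to 0.052, Panx1 from -0.060 to 0.46 and Cd44 from 0.045 to 0.56. The log2 ratio difference of Gja1 over Gjc1 ran from -0.12 to 0.54. Same-numbered libraries did not deviate together (r across genes -0.04, -0.45 and -0.17). For libraries with unlike numbers r ran from -0.33 to 0.39, and with 3 libraries per group these values cannot exclude a pairing. With the replicate block 986 genes had an unadjusted p under 0.05 (edgeR), against 1671 without it. In that fit the log2 fold change was 1.99 for Panx3 and -3.39 for Piezo2. Depth limits Piezo2 most, with 15 reads over the adenine libraries.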
